A study of Mus musculus with 17 samples.

Results

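The 32 genes described here make cholesterol and fatty acids or control that synthesis. They were taken as a list of names, from 36142 gene identifiers that stand in both of the study's count tables. The list was chosen with earlier results of these data known. Shares of members set beside those of all genes are therefore a description. The list holds 18 enzymes of sterol synthesis, 6 regulators and carriers (Srebf1, Srebf2, Insig1, Insig2, Scap and Stard4) and 8 enzymes of fatty acid synthesis and activation (Acly, Me1, Acaca, Fasn, Elovl6, Scd1, Scd2 and Acsl3). All 32 genes were found in both tables, and all 32 passed the filter on low counts in each.

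Poly(A) RNA of mouse lacrimal gland, the gland that secretes the aqueous layer of tears, and of lacrimal gland organoids, which are epithelial cultures grown in a basement membrane extract, was sequenced. The 17 libraries fall into 7 groups. One table holds uncloned wild-type organoids in differentiation medium (DM, n = 3), the same 3 lines in expansion medium (EM, n = 3) and wild-type gland tissue (n = 3), numbered as lines 6, 7 and 8. The other table holds organoid clones labelled Pax6-KO in DM and in EM, and wild-type (WT) clones in DM and in EM, each with 2 clones. EM cultures had 7 days of EM, and DM cultures had 2 days of EM and then 5 days of DM per the growth protocol. The series text gives the clones a week in either medium, so their time in DM is uncertain. No label says that the libraries of a group came from separate animals or cultures, so p-values measure the spread between these libraries, which may be technical. Each label rests on 2 clones, so an effect of the label and a difference between clones cannot be told apart. The sources used here do not give how the Pax6 alleles were made, the age of the mice or the components of the media.

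Cells build cholesterol from acetyl-CoA through mevalonate, isoprenoid units, squalene and lanosterol. Srebf2 and Srebf1 encode the SREBP transcription factors, which are held in the endoplasmic reticulum by Scap and the Insig proteins while sterols are plentiful. When sterols are low, Scap carries the factors to the Golgi, where they are cut and released to switch on sterol and fatty acid genes, Insig1 among them. Fatty acids are built from citrate-derived acetyl-CoA by Acly, Acaca and Fasn, and are then lengthened and desaturated. In the eye, lipids of the tear film come mainly from the meibomian glands rather than from the lacrimal gland.

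The promoter windows of 5 members are shown because the results below turn on 4 of them and because the other, Hmgcs1, holds the sterol motif. RefSeq windows on GRCm38.p6, from 250 bases before to 50 bases after a transcript start, were present for 26 of the 32 members. Fdps, Fdft1, Sqle, Stard4, Scd1 and Scd2 are named only. Each window is printed 5′ to 3′ on the gene's strand, with matches to a sterol regulatory element (TCACNCCAC) or to a CCAAT box (CCAAT, read ATTGG when it lies on the opposite strand) in capitals. Hmgcs1, which makes the precursor of mevalonate, is at chr13:119690101-119690400 (plus strand). Insig1, the sterol-responsive retention protein, is at chr5:28071162-28071461 (plus strand). Hsd17b7, a ketosteroid reductase of sterol demethylation, is at chr1:169969156-169969455 (minus strand). Dhcr7, which catalyses the last step to cholesterol in one branch of the pathway, is at chr7:143829964-143830263 (plus strand). That Dhcr7 window surrounds a start inside the gene and holds the most matches of the windows listed for it. Fasn, the fatty acid synthase, is at chr11:120824498-120824797 (minus strand), and a CCAAT box on each strand overlap there to give one run of capitals.
Hmgcs1: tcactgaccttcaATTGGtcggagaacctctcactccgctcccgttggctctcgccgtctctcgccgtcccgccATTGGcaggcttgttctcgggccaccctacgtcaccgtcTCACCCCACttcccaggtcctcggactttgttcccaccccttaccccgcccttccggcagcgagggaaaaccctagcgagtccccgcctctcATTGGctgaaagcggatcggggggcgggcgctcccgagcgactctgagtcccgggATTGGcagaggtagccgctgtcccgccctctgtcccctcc
Insig1: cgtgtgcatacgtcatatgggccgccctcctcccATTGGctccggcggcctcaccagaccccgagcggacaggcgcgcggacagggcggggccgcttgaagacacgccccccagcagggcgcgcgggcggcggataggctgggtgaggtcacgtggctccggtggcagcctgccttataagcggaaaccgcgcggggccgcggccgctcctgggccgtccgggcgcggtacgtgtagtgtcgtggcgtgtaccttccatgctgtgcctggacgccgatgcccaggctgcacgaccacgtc
Hsd17b7: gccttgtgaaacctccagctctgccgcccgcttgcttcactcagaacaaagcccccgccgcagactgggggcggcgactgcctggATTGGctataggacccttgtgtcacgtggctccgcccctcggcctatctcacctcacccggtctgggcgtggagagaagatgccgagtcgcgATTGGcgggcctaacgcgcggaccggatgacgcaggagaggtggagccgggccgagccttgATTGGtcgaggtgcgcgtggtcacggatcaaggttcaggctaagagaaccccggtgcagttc
Dhcr7: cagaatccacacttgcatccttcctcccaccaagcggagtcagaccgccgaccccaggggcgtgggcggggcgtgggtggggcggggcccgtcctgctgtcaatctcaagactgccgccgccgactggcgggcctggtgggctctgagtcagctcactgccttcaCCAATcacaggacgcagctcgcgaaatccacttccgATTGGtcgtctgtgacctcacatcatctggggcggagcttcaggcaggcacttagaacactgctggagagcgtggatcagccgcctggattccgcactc
Fasn: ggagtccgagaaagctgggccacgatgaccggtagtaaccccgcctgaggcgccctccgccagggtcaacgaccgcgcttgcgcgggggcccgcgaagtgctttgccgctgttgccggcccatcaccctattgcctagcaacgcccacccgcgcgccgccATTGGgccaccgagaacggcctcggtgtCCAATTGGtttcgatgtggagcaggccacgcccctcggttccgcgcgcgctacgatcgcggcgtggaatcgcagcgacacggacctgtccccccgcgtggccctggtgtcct

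Searched on both strands, the sterol motif TCACNCCAC was found in 1 of the 26 members (Hmgcs1, 137 bases before the start) and in 1.44% of all 27025 genes with a window. The CCAAT box was found in 22 of the 26 members and in 41.1% of all genes. The members with a CCAAT box were 14 of 15 sterol enzymes, 4 of 5 regulators and 4 of 6 fatty acid enzymes. A GC box (GGGCGG) was found in 22 of 26 members and in 38.2% of all genes, and an E-box (CACGTG) in 5 of 26 members and in 8.09% of all genes. These are matches of letters in a short window and say nothing about binding.

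Total counts ran from 12801473 to 19207469 in the table with gland tissue and from 18282059 to 22500534 in the clone table. Gene values are CPM, the reads of a gene relative to its library's total after trimmed-mean scaling within each table, and levels were not compared between tables. A few most abundant genes took 65.5% to 67.6% of reads in each gland library, against 5.96% to 6.72% in uncloned organoids. At similar totals, fewer reads were therefore left for all other genes in the gland. Scaling factors were 0.388 to 0.405 in the gland and 1.53 to 1.66 in uncloned organoids. Pax6, the labelled target, had 135 and 309 CPM in KO clones 1 and 2 in DM, against 219 and 279 CPM in WT clones in DM. In EM it had 172 and 272 CPM in the KO clones, against 245 and 276 CPM in the WT clones. The Pax6 level did not pass the test between KO and WT in either medium (log2 fold change -0.17, adjusted p = 0.831 in DM, and -0.23, adjusted p = 0.744 in EM, edgeR), so the label is not checked by transcript level, and KO below means labelled KO. Markers of secretory acinar cells summed to 267 to 346 CPM in uncloned DM and 308 to 355 CPM in uncloned EM, against 11481 to 12835 CPM in the gland. Fibroblast markers summed to at most 0.538 CPM in uncloned organoids and to at least 655 CPM in the gland. KO clone 1 in EM stood apart on the genes described here: all 18 sterol enzymes were lower in it than in KO clone 2 in EM, with a median log2 difference of -0.77, against 0.00 over all genes tested.

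Per kilobase of transcript, Scd2, a stearoyl-CoA desaturase, had the highest mean level of the 32 members in all 7 groups. In KO DM and WT DM its range overlapped that of Scd1, the next gene. Scd2 averaged 233 CPM per kb in uncloned DM and 413 CPM per kb in uncloned EM, against 71.9 CPM per kb in the gland, where its range overlapped that of Insig2, the next gene. In the uncloned organoids, Fdps, the farnesyl diphosphate synthase, was second (137 CPM per kb in DM and 161 CPM per kb in EM) and did not overlap its neighbours in either medium. In the gland, Insig2 (56.8 CPM per kb) and Me1, the NADPH-producing malic enzyme (53.0 CPM per kb), followed Scd2, and these levels overlapped between libraries. Idi1, the isopentenyl diphosphate isomerase, had the lowest mean level of the 32 in every group of organoids. It averaged 5.67 CPM per kb in uncloned DM and 5.31 CPM per kb in uncloned EM. Within the clone table it averaged 2.53 CPM per kb in KO DM to 3.08 CPM per kb in WT EM. In uncloned DM, uncloned EM and KO EM the range of Idi1 overlapped that of its neighbour. In the gland the lowest were Hsd17b7 (0.275 CPM per kb) and Idi1 (0.282 CPM per kb), whose ranges overlapped.

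The first comparison asks how uncloned organoids differ from gland tissue. In EM, 27 of the 32 members were higher than in the gland and 4 were lower, among them 17 of 18 sterol enzymes and 7 of 8 fatty acid enzymes that were higher. In DM, 26 were higher and 4 lower, with the same counts for both sets of enzymes. Of all 13713 genes tested, 37.4% were higher and 37.4% lower in EM, and 38.1% were higher and 37.4% lower in DM, so most genes tested differed here, and the share of members called higher was above that of all genes. The test was edgeR's quasi-likelihood test, and a gene was called where its p, after Benjamini-Hochberg adjustment over all genes tested, was under 0.05. The median log2 fold change of the sterol enzymes was 1.62 in DM and 2.32 in EM against the gland. That of the fatty acid enzymes was 1.67 in DM and 1.96 in EM, and that of all genes tested was 0.02 in DM and 0.01 in EM. In bulk tissue, fewer cells of a type and less RNA per cell cannot be told apart.

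**Figure D1:**
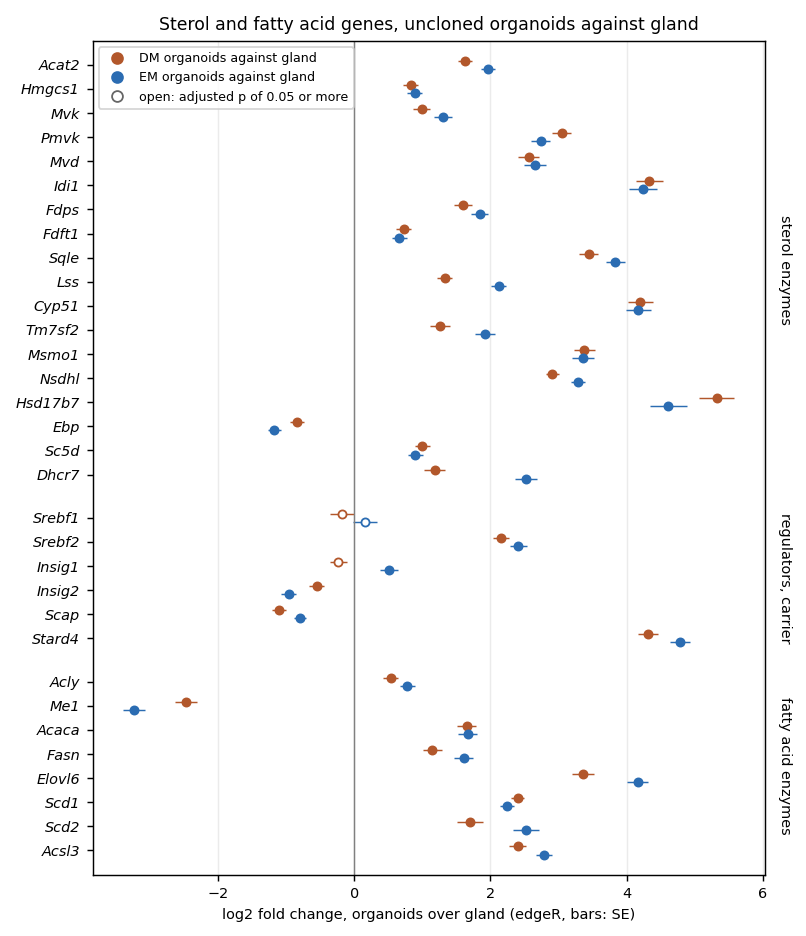
Log2 fold change of each member in uncloned organoids against gland (x axis; bars are the SE from edgeR), by gene (y axis) and set, with DM above EM in each row. Filled points passed the test; 17 of the 18 sterol enzymes lie to the right of 0 in both media, and Ebp and Me1 lie to the left, Ebp under this scaling but not under total-count scaling.

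Among the sterol enzymes, Nsdhl, a dehydrogenase that removes a methyl group from sterols, had the smallest p. Nsdhl had 74.7, 73.5 and 76.2 CPM in DM of lines 6, 7 and 8, 99.2, 93.1 and 100 CPM in EM of these lines, and 9.40, 9.11 and 11.2 CPM in the gland. All 6 organoid libraries lay above all 3 glands, by a log2 fold change of 2.91 ± 0.10 in DM (SE, adjusted p = 5.12e-10) and 3.29 ± 0.10 in EM (adjusted p = 2.37e-10). The largest change belonged to Hsd17b7, which had 47.8, 52.2 and 41.4 CPM in DM and 30.2, 28.3 and 27.7 CPM in EM, against 1.60, 1.82 and 0.385 CPM in the gland. It was 39.9-fold higher in DM (adjusted p = 9.02e-09) and 24.3-fold higher in EM (adjusted p = 3.93e-08) than in the gland. The lowest count in a library was 3 reads for Hsd17b7 and 4 for Idi1, both in the gland, so their fold sizes rest on few reads. Enzymes in the middle of the pathway rose less than Hsd17b7: Idi1 by 4.33 log2 units in DM and 4.24 in EM, Cyp51, which demethylates lanosterol, by 4.20 and 4.17, and Sqle, the squalene epoxidase, by 3.44 and 3.83. Fdft1, the squalene synthase, rose least, by 0.73 in DM and 0.66 in EM.

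Ebp, which shifts a double bond in the sterol ring, was the sterol enzyme that went the other way. Ebp had 30.2, 26.7 and 27.7 CPM in DM and 20.7, 22.3 and 24.3 CPM in EM, against 51.6, 46.1 and 53.6 CPM in the gland. No organoid library reached the level of any gland, and the log2 fold change was -0.84 ± 0.10 in DM (SE, adjusted p = 1.21e-05) and -1.17 ± 0.10 in EM (adjusted p = 8.72e-07).

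The regulators divided. Srebf2, the factor of sterol genes, had 200, 233 and 235 CPM in DM and 254, 245 and 296 CPM in EM, against 53.6, 43.0 and 52.3 CPM in the gland, a log2 fold change of 2.16 ± 0.12 in DM (SE, adjusted p = 2.03e-08) and 2.41 ± 0.12 in EM (adjusted p = 9.58e-09). Srebf1, which also serves fatty acid genes, had 99.7, 111 and 123 CPM in DM and 136, 137 and 149 CPM in EM, against 155, 85.1 and 137 CPM in the gland. The groups overlapped for Srebf1, and it did not pass the test (log2 fold change -0.18 ± 0.18, SE, adjusted p = 0.379 in DM, and 0.16 ± 0.17, adjusted p = 0.421 in EM). Insig1 had 53.5, 52.1 and 53.8 CPM in DM and 94.5, 83.1 and 89.3 CPM in EM, against 70.3, 47.0 and 69.1 CPM in the gland. It was higher in EM than in the gland (log2 fold change 0.51 ± 0.13, SE, adjusted p = 0.00381) and did not pass the test in DM (-0.23 ± 0.13, adjusted p = 0.133). Leaving out the gland of line 7, the lowest for both genes, put Srebf1 and Insig1 below the gland in DM (log2 fold change -0.38 for each, adjusted p = 0.0106 and 0.00261).

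Stard4, a carrier that moves cholesterol between membranes, changed the most of this set. Stard4 had 64.7, 70.8 and 67.7 CPM in DM and 99.5, 86.1 and 96.7 CPM in EM, against 2.48, 3.10 and 4.37 CPM in the gland. That was 19.8-fold higher in DM (adjusted p = 7.09e-10) and 27.5-fold higher in EM (adjusted p = 3.83e-10). Scap, the escort protein, and Insig2, the second retention protein, fell instead. Scap had 47.4, 54.2 and 58.4 CPM in DM and 64.8, 64.1 and 70.3 CPM in EM, against 113, 108 and 123 CPM in the gland (log2 fold change -1.10 in DM, adjusted p = 9.01e-07, and -0.79 in EM, adjusted p = 1.43e-05). Insig2 had 109, 100 and 103 CPM in DM and 86.3, 74.3 and 74.5 CPM in EM, against 152, 177 and 131 CPM in the gland (log2 fold change -0.55 in DM, adjusted p = 0.000811, and -0.96 in EM, adjusted p = 1.12e-05).

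Of the fatty acid enzymes, Elovl6, which lengthens saturated fatty acids, rose the most. Elovl6 had 38.6, 40.3 and 49.4 CPM in DM and 73.5, 70.0 and 80.7 CPM in EM, against 3.37, 4.74 and 4.37 CPM in the gland, so it was 10.2-fold higher in DM (adjusted p = 5.83e-09) and 17.9-fold higher in EM (adjusted p = 1.11e-09). Scd1, a desaturase, had 402, 479 and 437 CPM in DM and 368, 417 and 398 CPM in EM, against 89.4, 85.4 and 76.0 CPM in the gland (log2 fold change 2.40 in DM, adjusted p = 3.24e-09, and 2.24 in EM, adjusted p = 5.79e-09). Me1 fell. Me1 had 24.4, 29.7 and 39.8 CPM in DM and 18, 17.6 and 20.1 CPM in EM, against 175, 187 and 160 CPM in the gland, which is 5.55-fold lower in DM (adjusted p = 6.57e-08) and 9.38-fold lower in EM (adjusted p = 1.05e-08). Acly, which makes cytosolic acetyl-CoA from citrate, rose least, by 0.54 log2 units in DM and 0.78 in EM.

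**Figure D2:**
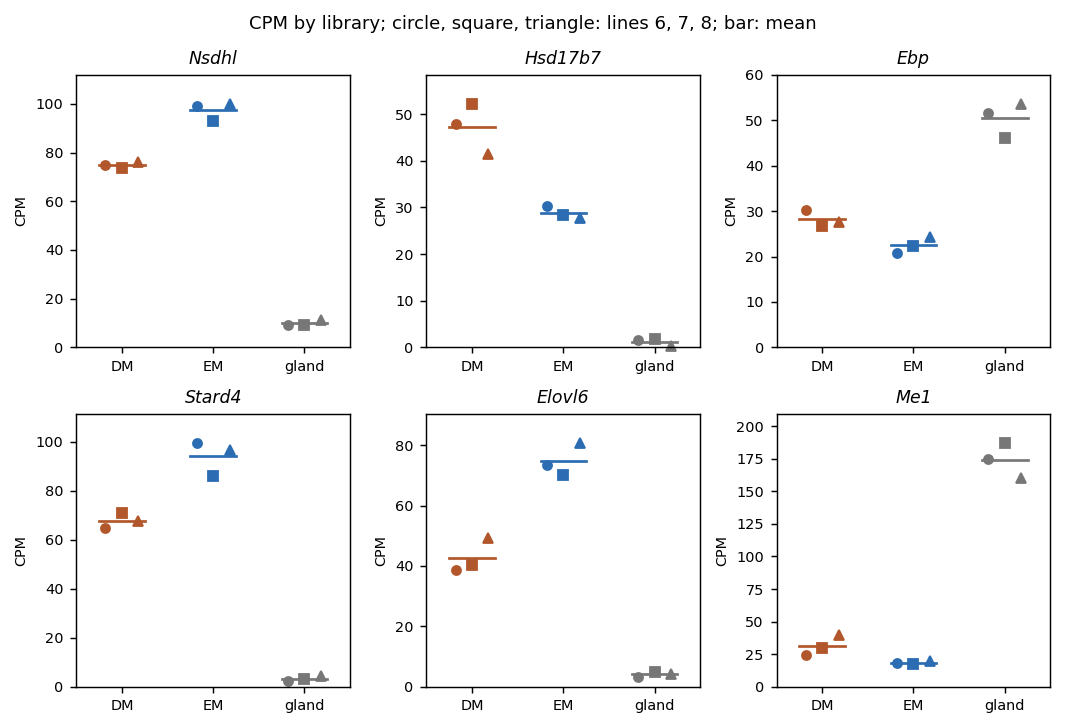
CPM (y axis, from 0) of 6 members in each library of DM, EM and gland (x axis), with a marker for each line and a bar at the group mean. Nsdhl, Hsd17b7, Stard4 and Elovl6 are near the bottom in the 3 glands, whereas Ebp and Me1 are highest there.

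The direction of Ebp, Insig2 and Scap depended on the scaling, whose factors differed between gland and organoids as given above. Scaled by total counts, the median of all genes tested moved to 1.98 log2 units in DM and 2.06 in EM against the gland. In each medium 31 members were then higher and 1, Me1, was lower. Of all 13713 genes tested, 11516 were higher and 1271 lower in DM, and 11493 were higher and 1302 lower in EM. Ebp, Insig2 and Scap remained below the median of all genes under this scaling. Their log2 fold changes were 1.13, 1.42 and 0.87 in DM and 0.89, 1.10 and 1.27 in EM, in that order. All 30 members called in DM and all 31 called in EM were still called with any library left out. Markers of basal cells, 8 of 8, and of dividing cells, 8 of 9, were also higher in both media than in the gland, and 7 of 8 acinar markers were lower. Their part in these results was not tested. Immune markers (6 of 6 tested), endothelial markers (5 of 5) and fibroblast markers (6 of 6) were also lower in both media. Myoepithelial markers were lower in 3 of 6 tested in DM and in 6 of 6 in EM. Of 3 nerve markers tested, Ncmap was higher and Sox10 lower, and of 3 markers of lipid-secreting glands tested, Cidea was higher and Mc5r and Soat1 lower. Of 11 adipocyte markers, 3 could be tested, of which Fabp4 and Plin4 were lower in both media and Lipe was higher. Adipoq and Plin1, which define fat cells, were at 0 to 0.182 CPM in every library. Lipe, a lipase that other cells also express, had 32 to 53.7 CPM in DM and 89.2 to 112 CPM in EM, against 8.93 to 11.5 CPM in the gland.

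Lists of further lipid genes, written from textbook knowledge, were counted in the same comparisons. Of all genes tested, 38.1% were higher and 37.4% lower in DM, and 37.4% were higher and 37.4% lower in EM. Of 13 other genes listed with the sterol pathway, 8 were higher and 2 lower in DM, and 8 were higher and 1 lower in EM. Not all of these make sterols: Npc1 and Npc2 act in lysosomal sterol export and Pcyt2 in phosphatidylethanolamine synthesis. Rdh11, a retinal reductase, rose by 4.11 ± 0.22 log2 units in DM and 4.53 ± 0.22 in EM (SE). Of 20 other fatty acid genes tested, 13 were higher and 6 lower in DM, and 12 were higher and 3 lower in EM, with Fads2, a desaturase of polyunsaturated fatty acids, at 5.86 and 6.18 log2 units. Gpam, which starts triglyceride assembly, fell (log2 fold change -3.05 in DM and -2.81 in EM). Fatty acid oxidation went the other way: 10 of 13 genes tested were lower in either medium, such as Hadhb of the trifunctional protein (log2 fold change -1.39 in DM and -1.26 in EM), and 1, the coactivator Ppargc1a, was higher in EM. Of 9 sterol efflux and storage genes tested, 2 were higher and 5 lower in DM, and 3 were higher and 5 lower in EM, where 37.4% of all genes were lower in either medium. The lower genes included the cholesterol exporter Abca1 (log2 fold change -2.36 in DM and -5.25 in EM). Cyp7b1, an oxysterol hydroxylase (3.52 in DM and 4.15 in EM), and Nr1h2, a sterol-sensing receptor (0.62 and 0.67), were higher in both media, and Lpcat3, which remodels phospholipids, was higher in EM (0.49).

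The second comparison asks what the differentiation medium did. In uncloned organoids, 4 of 32 members were higher in DM than in EM (Hsd17b7, Ebp, Insig2 and Me1) and 13 were lower. Of all genes tested, 17.2% were higher and 13.2% lower. The share of members was therefore above that of all genes among the lower calls and near it among the higher ones. In the clones fewer members passed the test: in KO clones 0 were higher and 2 lower (Fasn and Elovl6), and in WT clones 2 were higher (Hsd17b7 and Me1) and 5 lower (Dhcr7, Fasn, Elovl6, Scd2 and Acsl3). The shares of all 14282 genes tested in the clones were 4.94% higher and 3.41% lower in KO, and 9.61% higher and 6.13% lower in WT. Over the 18 sterol enzymes the median log2 fold change lay near 0 in each, at -0.08 in uncloned organoids, -0.01 in KO clones and -0.13 in WT clones. The fatty acid enzymes had medians of -0.32, -0.38 and -0.36 in that order.

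**Figure D3:**
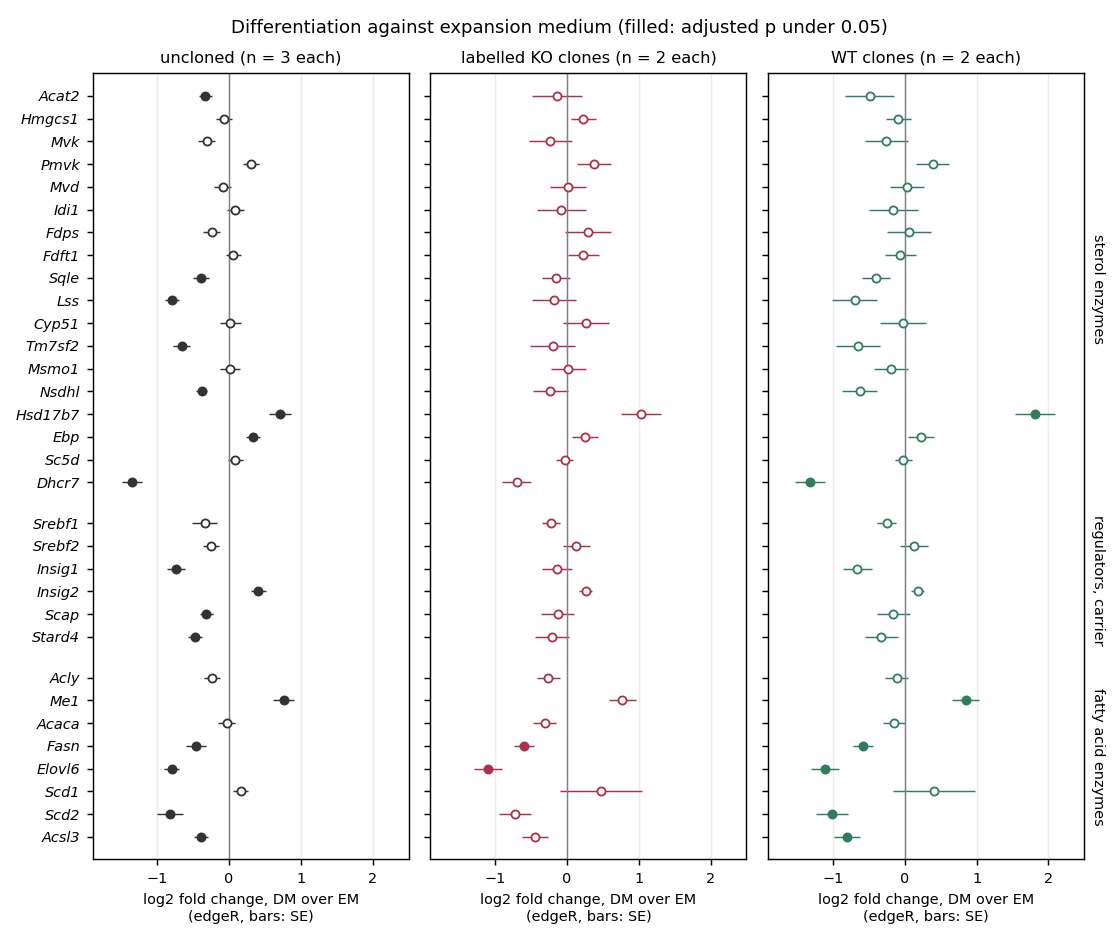
Log2 fold change of each member in DM against EM (x axis; bars are the SE from edgeR) in uncloned organoids, labelled KO clones and WT clones, by gene (y axis) and set. Filled points passed the test; Dhcr7 and Elovl6 lie left of 0 and Hsd17b7 and Me1 right of 0 in all 3 panels.

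Dhcr7 fell the most in uncloned organoids. It had 38.5, 37.9 and 51.7 CPM in DM of lines 6, 7 and 8, against 111, 98.8 and 115 CPM in EM, a log2 fold change of -1.35 ± 0.14 (SE, adjusted p = 7.67e-05). In the KO clones it had 44.8 and 34.8 CPM in DM, against 54.6 and 74.9 CPM in EM, which did not pass the test (-0.70 ± 0.20, SE, adjusted p = 0.0827, edgeR). In the WT clones Dhcr7 had 37.6 and 48.3 CPM in DM, against 112 and 102 CPM in EM (-1.32 ± 0.21, SE, adjusted p = 0.00862). Dhcr7 was lower in DM in all 3 lines and all 4 clones, and its call in uncloned organoids and in WT clones held with any library left out.

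Hsd17b7 was higher in DM in every line and clone. It had the 47.8, 52.2 and 41.4 CPM in DM and 30.2, 28.3 and 27.7 CPM in EM of the uncloned lines given above, a log2 fold change of 0.71 ± 0.15 (SE, adjusted p = 0.00533). In KO clones it had 54.1 and 36.3 CPM in DM, against 19.2 and 25 CPM in EM (1.03 ± 0.28, SE, adjusted p = 0.0695, edgeR). In WT clones it had 118 and 79.2 CPM in DM, against 24.2 and 32 CPM in EM (1.81 ± 0.28, SE, adjusted p = 0.00875). Without WT clone 1 in EM the WT difference no longer passed (adjusted p = 0.058). Ebp also rose in uncloned organoids (0.33 ± 0.10, SE, adjusted p = 0.0237), and kept its direction but not its call without DM of line 6 (0.29, adjusted p = 0.0789), without EM of line 6 (0.27, adjusted p = 0.103), without EM of line 7 (0.33, adjusted p = 0.0781) and under total-count scaling (0.24, adjusted p = 0.0918).

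The other sterol enzymes that fell in uncloned DM were Lss, the lanosterol synthase (-0.79, adjusted p = 0.000195), Tm7sf2, a sterol reductase (-0.66, adjusted p = 0.00214), Nsdhl (-0.38, adjusted p = 0.00399), Sqle (-0.39, adjusted p = 0.0195) and Acat2, a thiolase at the entry of the pathway (-0.33, adjusted p = 0.0199). The Acat2 call was lost without DM of line 6 (adjusted p = 0.083) and without EM of line 8 (0.0961), and the Sqle call was lost in 4 of 9 such fits, those without DM of lines 6 and 7 and EM of lines 6 and 8 (adjusted p = 0.0608 to 0.0902). The 10 other sterol enzymes did not pass, with log2 fold changes between -0.31 and 0.31. Pmvk, the highest of them, passed with the line as a block (0.32, adjusted p = 0.0455).

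Insig1 fell in uncloned DM, to the 53.5, 52.1 and 53.8 CPM given above against 94.5, 83.1 and 89.3 CPM in EM (log2 fold change -0.74 ± 0.13, SE, adjusted p = 0.00133). In KO clones it had 10.2 and 9.02 CPM in DM, against 8.07 and 13.1 CPM in EM (-0.14 ± 0.21, SE, adjusted p = 0.754). In WT clones it had 53.3 and 51.0 CPM in DM, against 82.3 and 82.2 CPM in EM (-0.66 ± 0.20, SE, adjusted p = 0.0687, edgeR), and it passed with the clone as a block (adjusted p = 0.0334). Insig2 rose in uncloned DM by 0.41 ± 0.11 log2 units (SE, adjusted p = 0.0156), while Stard4 fell (-0.47, adjusted p = 0.00591) and so did Scap (-0.32, adjusted p = 0.0248). The Insig2 call was kept in 6 and the Scap call in 4 of 9 fits that left out a library. Srebf1 had a lower level in DM in all 7 lines and clones without passing the test in any of the 3 comparisons (log2 fold change -0.34 in uncloned organoids, -0.22 in KO and -0.25 in WT clones, adjusted p = 0.169, 0.342 and 0.225). In uncloned organoids Srebf1 passed when the gland of line 7 was left out (-0.34, adjusted p = 0.0274) and when the DM and EM libraries were fitted alone (-0.34, adjusted p = 0.0279). Srebf2 did not pass either (-0.25, 0.13 and 0.13, adjusted p = 0.106, 0.75 and 0.706), but passed in uncloned organoids under total-count scaling (-0.34, adjusted p = 0.0466).

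Among the fatty acid enzymes, Elovl6 was called lower in all 3 comparisons. It had 38.6, 40.3 and 49.4 CPM in uncloned DM, against 73.5, 70.0 and 80.7 CPM in EM (log2 fold change -0.80 ± 0.11, SE, adjusted p = 0.000378). In KO clones it had 22.8 and 22.9 CPM in DM, against 40.5 and 57.8 CPM in EM (-1.10 ± 0.19, SE, adjusted p = 0.0202). In WT clones it had 33.9 and 38.8 CPM in DM, against 71.5 and 85.6 CPM in EM (-1.11 ± 0.19, SE, adjusted p = 0.0108). Every DM library lay below every EM library of its own set. Without KO clone 2 in EM or either KO clone in DM the KO call was lost (adjusted p = 0.0968, 0.118 and 0.0984), and without WT clone 2 in EM or WT clone 1 in DM the WT call was (adjusted p = 0.0521 and 0.05).

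Scd2 had 1113, 1208 and 1498 CPM in uncloned DM, against 2298, 2092 and 2376 CPM in EM (log2 fold change -0.82 ± 0.18, SE, adjusted p = 0.00566). Its WT clones had 903 and 1296 CPM in DM, against 2011 and 2428 CPM in EM (-1.01 ± 0.22, SE, adjusted p = 0.0254). Fasn fell in all 3 comparisons (log2 fold change -0.46 in uncloned organoids, -0.60 in KO clones and -0.58 in WT clones, adjusted p = 0.0269, 0.0484 and 0.0376), and Acsl3, which activates long-chain fatty acids, fell in uncloned organoids and in WT clones (-0.39 and -0.81, adjusted p = 0.0156 and 0.0265). These calls were near the threshold: the Fasn call in KO clones was kept in 0 of 8 fits that left out a library, and in WT clones in 2 of 8. In uncloned organoids it was kept in 4 of 9. The WT calls of Scd2 and Acsl3 were kept in 5 and in 4 of 8. Me1 moved the other way, with 24.4, 29.7 and 39.8 CPM in uncloned DM, against 18, 17.6 and 20.1 CPM in EM (0.76 ± 0.15, SE, adjusted p = 0.00361). Me1 had 38.1 and 33.5 CPM in KO DM, against 17.3 and 24.9 CPM in KO EM (0.77 ± 0.19, SE, adjusted p = 0.0565, edgeR), and 35.0 and 31.6 CPM in WT DM, against 17.3 and 19.7 CPM in WT EM (0.85 ± 0.19, SE, adjusted p = 0.0285). The WT call for Me1 was lost without either WT clone in EM, either WT clone in DM or KO clone 2 in DM (adjusted p = 0.0503 to 0.144).

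Read line by line, 8 members were lower in DM in all 7 lines and clones: Dhcr7, Srebf1, Scap, Acly, Fasn, Elovl6, Scd2 and Acsl3. The 5 members higher in all 7 were Pmvk, a kinase of the mevalonate arm, Hsd17b7, Ebp, Insig2 and Me1, and the other 19 were mixed. Over the 32 members, the DM effect in uncloned organoids had a Pearson r of 0.84 and a Spearman rho of 0.82 with that in KO clones, and of 0.90 and 0.91 with that in WT clones. These values are over genes, which are not independent replicates, and are given as a description. Neither the counts of members that moved one way in all 7 nor these correlations were computed over all genes tested. Whether they are particular to these members was therefore not tested. In KO clone 1, 16 of 18 sterol enzymes were higher in DM than in EM, with a median log2 difference of 0.42, and in KO clone 2, 3 of 18 were (median -0.32). In uncloned lines 6, 7 and 8, 9, 10 and 3 of 18 were higher (medians -0.01, 0.06 and -0.36), and in WT clones 1 and 2, 6 and 4 of 18 (medians -0.12 and -0.18). Without the EM library of KO clone 1, the median over the sterol enzymes in KO clones was -0.33, and without the EM library of KO clone 2 it was 0.46.

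With the clone as a block, 1 member was higher in KO DM (Me1, adjusted p = 0.0343) and 3 lower, with Scd2 added (adjusted p = 0.0317), and 2 were higher and 7 lower in WT DM, with Nsdhl and Insig1 added. In uncloned organoids, 10 of the 17 calls held with any library left out. Without EM of line 8, 8 members were called lower. Without EM of line 7 or DM of line 6, 2 were called higher. In WT clones, 0 members were called higher without WT clone 1 in EM, and 1 was called lower without WT clone 2 in EM or WT clone 1 in DM, 2 without WT clone 1 in EM, 3 without WT clone 2 in DM and 8 without either KO clone in EM. In KO clones, 0 were called lower without KO clone 2 in EM or either KO clone in DM, and 1 without KO clone 1 in EM, either WT clone in EM or WT clone 1 in DM. Myoepithelial markers were higher in uncloned DM than in EM in 5 of 6 tested, with summed levels of 137 to 230 CPM in DM, against 6.12 to 7.22 CPM in EM. Basal markers were higher there in 5 of 8, with 6455 to 8321 CPM in DM, against 4253 to 4588 CPM in EM, acinar markers in 3 of 8, with 267 to 346 CPM in DM, against 308 to 355 CPM in EM, and immune markers in 4 of 6, with 5.80 to 10.8 CPM in DM, against 1.36 to 2.41 CPM in EM. Markers of dividing cells passed in 0 of 9 in uncloned organoids, with 531 to 1209 CPM in DM, against 1124 to 1271 CPM in EM. They were lower in DM in 5 of 9 in KO clones, with summed levels of 153 to 170 CPM in DM, against 493 to 684 CPM in EM. In WT clones 3 of 9 were lower, with 129 to 277 CPM in DM, against 390 to 461 CPM in EM. From the other marker lists, Col1a1, Pecam1, Ncmap and Cidea were called higher in uncloned DM, and Vwf, Soat1 and Lipe lower. Other markers called higher in WT DM were Aqp5 (log2 fold change 2.64), Mylk, Krt14 and Cidea, and Xbp1, Soat1 and Lipe were lower. In KO DM, Acta2 and Mylk were higher, and Aqp5 (-2.78), Xbp1 and Lipe were lower. The part of these cell types in the results was not tested.

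Outside the 32 genes, 5 of 13 other sterol pathway genes were lower in uncloned DM than in EM and 1 was higher, the lysosomal exporter Npc1 (log2 fold change 0.42, adjusted p = 0.0133). Pcyt2, of phosphatidylethanolamine synthesis, fell by 0.74 (adjusted p = 0.00047). Of 9 sterol efflux and storage genes tested, 2 rose and 3 fell in uncloned DM. Abca1 rose by 2.89 ± 0.25 (SE, adjusted p = 2.16e-05) and Abcg1, another sterol exporter, by 0.86 (adjusted p = 0.0373), and neither passed the test in the clones. Soat1, which esterifies cholesterol (-1.03, adjusted p = 3.25e-04), Cyp7b1 (-0.62, adjusted p = 0.00294) and Lpcat3 (-0.32, adjusted p = 0.0170) fell. Of 20 other fatty acid genes tested, 8 fell in uncloned DM, such as Acss2, which makes acetyl-CoA from acetate (-1.18, adjusted p = 0.000187), and 1, the elongase Elovl7, rose (0.87, adjusted p = 0.0038). Elovl7 also rose in DM in KO clones (1.04, adjusted p = 0.00403) and in WT clones (1.42, adjusted p = 0.00101). Ppargc1a, the coactivator of oxidative metabolism, fell in all 3 comparisons (log2 fold change -3.33 in uncloned organoids, -3.24 in KO clones and -3.86 in WT clones, adjusted p = 0.00212, 0.00961 and 0.00331).

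The third comparison sets clones labelled Pax6-KO against WT clones in each medium. Insig1 was the member that differed by far the most, 5.43-fold lower in KO in DM and 7.78-fold lower in KO in EM. In DM, 0 of 32 members were higher in KO and 3 were lower (Sc5d, Insig1 and Insig2), beside 2.39% higher and 3.08% lower of all genes tested. In EM, 0 were higher and 4 were lower (Sc5d, Insig1, Insig2 and Stard4), beside 5.38% higher and 4.41% lower. The share of members called lower was above that of all genes, though it rests on 3 members in DM and 4 in EM. With 32 members, 0 higher calls cannot be told from the small share of all genes called higher.

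Insig1 (ENSMUSG00000045294) lies at chr5:28071363-28078662 on the plus strand of GRCm38, and its promoter is printed above. It had 10.2 and 9.02 CPM in KO clones 1 and 2 in DM, against 53.3 and 51.0 CPM in WT clones in DM. In EM it had 8.07 and 13.1 CPM in the KO clones, against 82.3 and 82.2 CPM in the WT clones. Every KO library was below every WT library, by a log2 fold change of -2.44 ± 0.22 in DM (SE, adjusted p = 0.00872) and -2.96 ± 0.22 in EM (SE, adjusted p = 0.00273). The EM call held with any library left out (highest adjusted p = 0.0134), and the DM call was lost without KO clone 1 in DM (log2 fold change -2.53, adjusted p = 0.0883). Of the genes tested within 500000 bases, Paxip1 had log2 fold changes of 0.01 in DM and 0.07 in EM and Rbm33 of -0.13 and -0.31, and neither passed the test (adjusted p from 0.111 to 0.976).

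Sc5d, which sets a double bond late in the pathway, was the sterol enzyme called lower in KO. Sc5d had 138 and 150 CPM in KO in DM, against 202 and 241 CPM in WT in DM (log2 fold change -0.62 ± 0.12, SE, adjusted p = 0.0374). In EM it had 138 and 155 CPM in KO, against 227 and 222 CPM in WT (-0.61 ± 0.12, SE, adjusted p = 0.0262). Insig2 had 123 and 134 CPM in KO in DM, against 187 and 184 CPM in WT (-0.53 ± 0.09, SE, adjusted p = 0.0303), and 109 and 105 CPM in KO in EM, against 171 and 156 CPM in WT (-0.61 ± 0.09, SE, adjusted p = 0.0131). Stard4 had 34.5 and 56.7 CPM in KO in EM, against 88.6 and 101 CPM in WT (-1.06 ± 0.24, SE, adjusted p = 0.0373). In DM it had 43.0 and 35.6 CPM in KO, against 68.6 and 82.8 CPM in WT, and did not pass (-0.95 ± 0.24, SE, adjusted p = 0.0687). The KO and WT libraries did not overlap for any of these 3 genes in either medium, as was so for 52.5% of all genes tested in DM and 61.6% in EM. The calls rested on few libraries: in DM, Sc5d was kept in 0 of 8 and Insig2 in 2 of 8 fits that left out a library, and in EM Sc5d was kept in 4, Insig2 in 5 and Stard4 in 3 of 8.

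**Figure D4:**
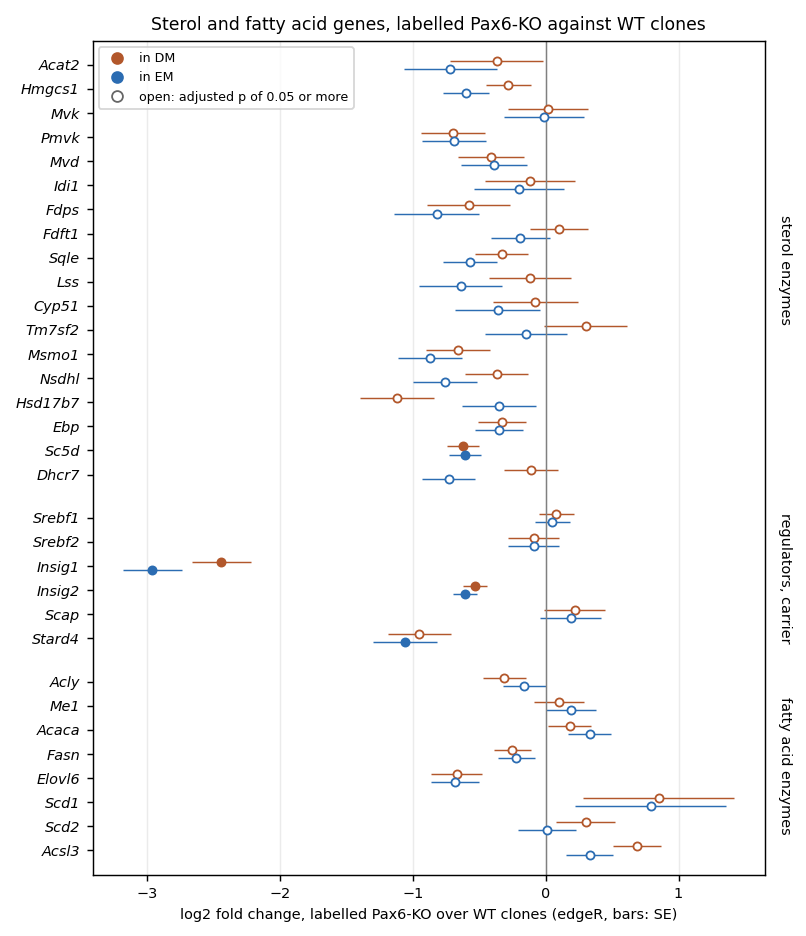
Log2 fold change of each member in labelled Pax6-KO clones against WT clones (x axis; bars are the SE from edgeR), by gene (y axis) and set, with DM above EM in each row. Filled points passed the test; Insig1 lies far to the left of all others in both media, and the 18 sterol enzymes all lie left of 0 in EM.

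The transcription factors themselves did not pass the test. Srebf1 had 140 and 123 CPM in KO in DM, against 112 and 136 CPM in WT, and 149 and 157 CPM in KO in EM, against 141 and 155 CPM in WT (log2 fold change 0.08 ± 0.13, SE, adjusted p = 0.742 in DM, and 0.05 ± 0.13, adjusted p = 0.835 in EM). Srebf2 had 334 and 408 CPM in KO in DM, against 387 and 400 CPM in WT, and 278 and 400 CPM in KO in EM, against 330 and 390 CPM in WT (-0.09 ± 0.19, SE, in both media, adjusted p = 0.827 in DM and 0.816 in EM).

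Of the sterol enzymes 1 passed the test in each medium. In EM all 18 sterol enzymes had a negative log2 fold change in KO, with a median of -0.59, against 0.01 over all genes tested. Msmo1, a sterol methyl oxidase, had -0.87 ± 0.24 (SE, adjusted p = 0.0689), Fdps -0.82 ± 0.32 (adjusted p = 0.151), Nsdhl -0.76 ± 0.24 (adjusted p = 0.0977) and Dhcr7 -0.73 ± 0.20 (adjusted p = 0.0682). The summed level of the 18 enzymes was 853 CPM in KO clone 1 and 1365 CPM in KO clone 2, against 1562 to 1728 CPM in WT clones. Without KO clone 1 in EM, 13 of 18 were negative with a median of -0.24, and Insig1 alone was called of the 32. Without KO clone 2 in EM, 18 of 18 were negative with a median of -0.91. In DM, 15 of 18 were negative with a median of -0.33, and the summed level was 1148 to 1157 CPM in KO, against 1466 to 1505 CPM in WT. The fatty acid enzymes had medians of 0.14 in DM and 0.10 in EM, with 5 of 8 positive in each, and 0 of 8 passed the test. Scd1 was the most variable of them, with 1120 and 1014 CPM in KO in DM, against 253 and 931 CPM in WT.

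**Figure D5:**
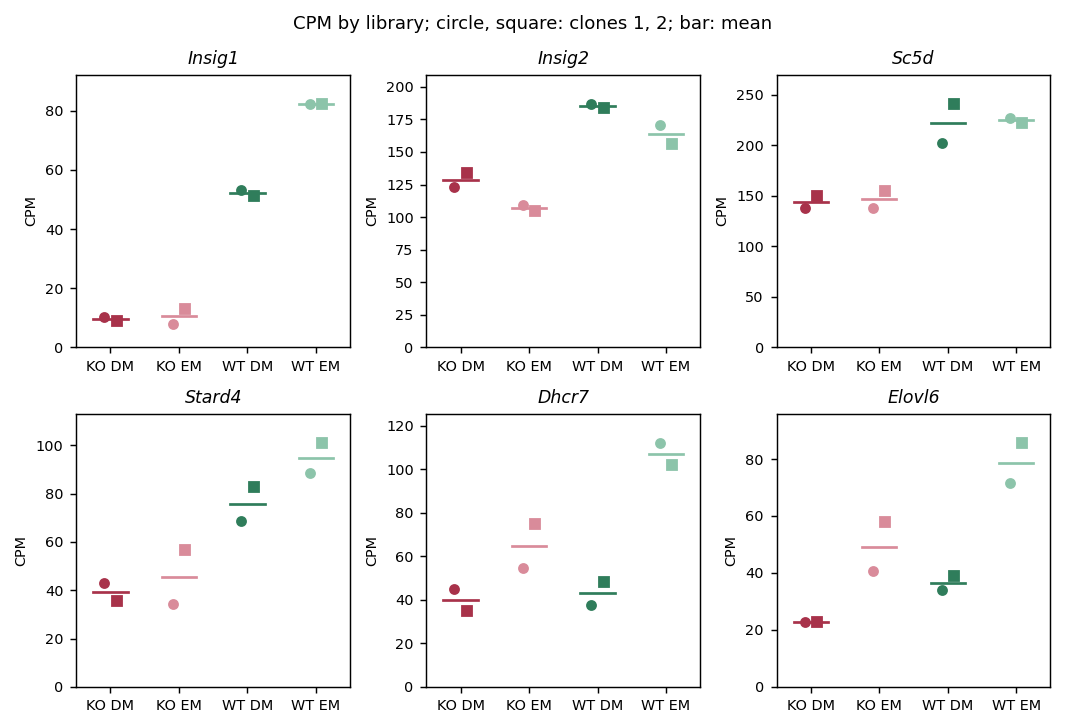
CPM (y axis, from 0) of 6 members in each clone library of KO DM, KO EM, WT DM and WT EM (x axis), with a marker for each clone and a bar at the group mean. Insig1 is at most 13.1 CPM in the 4 KO libraries and at least 51.0 CPM in the 4 WT libraries; Dhcr7 and Elovl6 are highest in WT EM.

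Without KO clone 1 in DM, 0 members were called lower in DM, and without KO clone 2 or either WT clone in DM, 1 was. In EM, 1 was called without WT clone 1 and 2 without WT clone 2. DESeq2 called 6 members lower and 1 higher in DM and 9 lower in EM. The shares of all genes given above are edgeR's, and those of DESeq2 are not given, so these counts cannot be set against them. Markers of dividing cells did not pass the test between KO and WT (0 of 9 in either medium). Of 8 basal markers only Krt14 was called, higher in KO in EM (log2 fold change 1.25 ± 0.28, SE, adjusted p = 0.0388). There Krt15 and Itga6 were negative (-1.78 and -0.18) and the others positive, without passing. Of 7 acinar markers tested only Aqp5 was called, lower in KO in DM (-7.07 ± 0.58, SE, adjusted p = 0.00733). There Lpo was positive (2.60) and the others negative, without passing. Their part in these results was not tested. Of the other sterol pathway genes, 0 of 13 differed in DM, and in EM Pcyt2 was lower (-0.78, adjusted p = 0.0437) and Npc2, a lysosomal sterol binder, higher (0.74, adjusted p = 0.0201). Elovl7 was higher in KO in both media (0.89, adjusted p = 0.0132 in DM, and 1.26, adjusted p = 0.00346 in EM), and Lpin1, a phosphatidate phosphatase, was lower in KO in EM (-0.74, adjusted p = 0.0303).

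Whether the DM effect differed between KO and WT clones was tested as an interaction, the DM effect in KO minus that in WT. By edgeR 0 of the 32 members and 0 of 14282 genes passed, which is 0% of all genes tested, and 0 members and 1126 genes had an unadjusted p under 0.05. By DESeq2 0 members passed as well. The members with the smallest p were Dhcr7 (interaction 0.62 ± 0.29 log2 units, SE, adjusted p = 0.662) and Hsd17b7 (-0.78 ± 0.39, SE, adjusted p = 0.703). Hsd17b7 passed when no filter on low counts was applied (-0.77, adjusted p = 0.0408). Insig1 had 0.52 ± 0.29 (SE, adjusted p = 0.756), Srebf1 0.03 ± 0.18 (adjusted p = 0.994) and Srebf2 0.00 ± 0.27 (adjusted p = 1.0).

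Some counts may be affected by genes with overlapping exons. The strand setting of the counting is not given, which matters for overlaps on opposite strands. Overlaps on the same strand remain under any setting. Exons of Fdft1 overlap 774 bases of Ctsb on the other strand, a gene of up to 672 CPM in one table and 1237 CPM in the other. Tm7sf2 shares 532 exon bases with Vps51 on its own strand. Fdps shares 1124 with Gm43738, also on its own strand, which is listed in the clone table alone, at 0 CPM. Fdps had 6.11 to 18.4 CPM in the clone libraries and 184 to 249 CPM in uncloned organoids. Whether reads of Fdps were lost to this overlap in the clone table was not tested. Scd1, Scd2 and Acat2 have close relatives in the mouse genome, so reads may be divided among them.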

How the data were processed

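The authors deposited whole-number read counts per gene, in one table for gland and uncloned organoids and another for the clones. Per the labels' protocols the libraries came from a stranded poly(A) kit, and per the submitters' processing notes STAR, featureCounts and GRCm38 were used. The versions, the annotation release and the strand setting of these steps were not given in those sources. Gene coordinates are from GENCODE M21 on GRCm38, which holds 36429 of 38293 and 55227 of 55487 gene identifiers.

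Each table was fitted over all its groups without a block (edgeR 4.0.16, R 4.3.3, trimmed mean of M-values, filterByExpr, quasi-likelihood test), with Benjamini-Hochberg adjustment over all 13713 or 14282 genes tested. The fits leave 6 and 4 residual degrees of freedom. Each SE was taken from the fitted fold change and its F statistic (log2 value over root F). The fitting code was tested on simulated data. CPM per kb uses transcript length. Differences by line or clone use log2(CPM + 0.5). DESeq2 1.42.0, other scalings, no filter, the groups of a contrast alone, blocks on line or clone and leaving out each library were the alternatives.

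The labels give EM and DM of the same number as the same line or clone. Deviations of such pairs correlated at 0.18, 0.12 and 0.093 for lines 6, 7 and 8, at 0.51 in KO clones and at 0.6 in WT clones. Those of gland and uncloned organoids of the same number correlated at -0.073 to 0.085. With 2 clones in a group the paired clones share one value of r by construction.

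The 32 members and the lists (other sterol pathway, sterol efflux and storage, other fatty acid pathway, fatty acid oxidation, and markers of adipocytes, lipid-secreting glands, acinar, basal, myoepithelial, fibroblast, immune, endothelial, nerve and dividing cells) were chosen with earlier results of these data known. Values per library were given, in each comparison and set, for the called member with the smallest p, the one with the largest fold change and any that moved against its set, and for Srebf1, Srebf2 and Insig1. From the other lists the rule took the 2 called genes with the smallest p and any called against the majority, and further genes were named after their values were seen.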

Additional observations from a re-analysis of the deposited data

Results flagged for a closer look

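Srebf2 moved one way with DM in every uncloned line and the other way in every clone. The log2 difference, DM minus EM, was -0.34, -0.07 and -0.33 in lines 6, 7 and 8, against 0.26 and 0.03 in KO clones 1 and 2 (mean 0.15) and 0.23 and 0.04 in WT clones 1 and 2 (mean 0.14). The difference between uncloned lines and clones was not tested, because they stand in separate tables.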

How the results depend on the processing

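Of 1674 values of named genes under an alternative, 1563 kept their direction and side of the threshold, 13 passed newly, 90 no longer passed and 8 reversed. The reversals came from total-count scaling against the gland, which moves the median of all genes: Ebp 1.13, Srebf1 1.80, Insig1 1.74, Insig2 1.42 and Scap 0.87 in DM, and Ebp 0.89, Insig2 1.10 and Scap 1.27 in EM. The count of lower members was then 1 in each medium.

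With no filter on low counts, 10 members were lower in WT DM than in WT EM, 3 were higher and 5 lower in KO DM than in KO EM, 2 were higher and 8 lower in KO than in WT in DM, 1 was higher and 14 lower in EM, and 1 was lower in the interaction. DESeq2 gave 2 higher and 4 lower in KO DM against KO EM, 1 higher and 6 lower in KO against WT in DM, and 9 lower in EM. DESeq2 size factors gave 1 lower in KO DM against KO EM. The libraries of both groups alone gave 1 higher in KO DM against KO EM and 1 lower in KO against WT in DM. A replicate block on the clone gave 1 higher in KO DM against KO EM. Between KO and WT the clone number only names a clone, and as a replicate block it gave 7 lower in EM, with Hmgcs1, Nsdhl and Elovl6 added (adjusted p = 0.0469, 0.0481 and 0.0258), and 4 in DM, with Elovl6 added (adjusted p = 0.0418). The causes of these changes were not tested. Shares of all genes called are not given for these settings, nor for fits with a block or a library left out. These counts therefore cannot be read as particular to the members. The blocks on line and clone changed no call of a member other than Pmvk, Nsdhl, Insig1, Me1 and Scd2, as given in the report.

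Leaving out 1 library gave 26 to 26 higher and 4 to 6 lower members in DM against gland, and 27 to 27 and 4 to 4 in EM against gland. It gave 2 to 5 higher and 8 to 14 lower in uncloned DM against EM, 0 to 0 and 0 to 2 in KO clones, and 0 to 2 and 1 to 8 in WT clones. Between KO and WT it gave 0 to 0 higher in both media, 0 to 3 lower in DM and 1 to 5 lower in EM, and 0 to 0 in the interaction. The 2 clones per label limit every clone comparison.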
